A study of Mus musculus with 12 samples.

Results

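Benign mammary tissue from a mouse model of HER2-driven breast cancer fell into samples that carried skeletal muscle transcripts and samples that hardly did. The 6 benign samples were chosen by a single transcript, Acta1, the actin of skeletal muscle thin filaments, and were called muscle-containing where Acta1 exceeded 1000 CPM, the count divided by the library total and multiplied by 1000000, and muscle-poor where it did not. Benign samples 3, 4 and 6 were muscle-containing, with Acta1 at 11841, 6457 and 15433 CPM, and benign samples 1, 2 and 5 were muscle-poor, with 9.73, 22.1 and 119.9 CPM. The samples nearest to the threshold were therefore sample 5 at 119.9 CPM below it and sample 4 at 6457 CPM above it. The 2 sets were made from measured values and not from any label of the study, so the muscle genes that separate them are described here with no test. For genes outside muscle, an adjusted p-value states only how well a gene separates along a division drawn from these same libraries. In every sentence below that gives 3 values for each set, the muscle-poor values are those of samples 1, 2 and 5 and the muscle-containing values those of samples 3, 4 and 6, in that order.

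The series measured RNA in 12 samples, 6 benign and 6 tumor, of which the 6 benign samples are compared here. All came from female MMTV/neu-ndl-YD5 mice on the FVB background, in which the mouse mammary tumor virus promoter drives an activated HER2 receptor in mammary epithelium, so the benign tissue carries the transgene as well. The animals were untreated and were followed from young adulthood until tumors had grown, and the labels give no age for each animal. For the benign samples, glands that looked tumor-free were dissected at a distance from the tumors, and the gland that each of the 6 pieces came from is not given in the sources used here. Benign and tumor samples for RNA came from different mice.

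Skeletal muscle is built of fibers whose sarcomeres hold actin, myosin and troponin and whose contraction is set off by calcium released through the ryanodine receptor. Brown fat is a separate tissue that burns lipid to make heat through the uncoupling protein Ucp1. Both tissues are dense in mitochondria and use some of the same oxidative isoforms, while the mammary fat pad itself consists mostly of white adipocytes in which ducts of luminal and basal epithelium, fibroblasts, vessels and immune cells are embedded. In bulk RNA, fewer cells of a type and less RNA per cell cannot be told apart.

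Library totals were 5240853 to 7962393 counts in the muscle-poor samples and 6675837 to 8170687 in the muscle-containing samples, and the 10 most abundant genes took 7.93% to 8.30% and 8.96% to 12.7% of counts. No pair of benign libraries agreed within sampling noise. Mammary epithelial transcripts were present in every benign sample, with Epcam, a surface protein of epithelium, at 121 to 381 CPM, and Erbb2, the gene of the HER2 receptor, at 41.8 to 70.3 CPM with no separation of transgene and mouse transcripts in the table. Some libraries stood apart from the others within their set. Sample 1 carried lymph node transcripts, with T cell genes at 0.163% of its counts against 0.00153% to 0.00468% in the other benign samples, sample 4 carried most of the brown fat transcripts, and sample 3 carried high milk and cell division transcripts. Leaving out one of these libraries changed the calls of many gene lists, and for several of them the counts without it are given below.

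The promoters of 3 genes that mark muscle and of the gene that marks brown fat are shown because the description turns on these transcripts and because muscle transcription factors of the MyoD family bind the E-box, CANNTG. The sequences are the 250 bases upstream of each RefSeq start in GRCm38.p6, written in the direction of transcription, with E-box matches in capitals. Acta1 lies at chr8:123891758-123894775 on the minus strand and its promoter window at chr8:123894776-123895025. Ckm, the creatine kinase of muscle, lies at chr7:19411094-19421583 with its window at chr7:19410844-19411093, and Myh4, the myosin heavy chain of the fastest fibers, lies at chr11:67237812-67260447 with its window at chr11:67237562-67237811, both on the plus strand. Ucp1 lies at chr8:83290348-83298456 on the plus strand with its window at chr8:83290098-83290347.
Acta1: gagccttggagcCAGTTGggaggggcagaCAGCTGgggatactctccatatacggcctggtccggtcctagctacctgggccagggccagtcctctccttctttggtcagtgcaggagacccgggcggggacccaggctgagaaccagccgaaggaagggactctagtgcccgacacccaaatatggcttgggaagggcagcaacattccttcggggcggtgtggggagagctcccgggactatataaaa
Ckm: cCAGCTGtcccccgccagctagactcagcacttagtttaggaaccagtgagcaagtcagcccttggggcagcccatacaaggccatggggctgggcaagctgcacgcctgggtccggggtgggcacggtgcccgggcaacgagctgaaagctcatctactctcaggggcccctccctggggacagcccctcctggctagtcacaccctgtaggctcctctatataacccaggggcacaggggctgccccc
Myh4: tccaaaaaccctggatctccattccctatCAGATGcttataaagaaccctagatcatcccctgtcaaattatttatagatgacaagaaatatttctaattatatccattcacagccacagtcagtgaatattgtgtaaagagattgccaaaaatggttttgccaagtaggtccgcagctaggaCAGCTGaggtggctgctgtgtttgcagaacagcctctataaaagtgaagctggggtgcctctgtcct
Ucp1: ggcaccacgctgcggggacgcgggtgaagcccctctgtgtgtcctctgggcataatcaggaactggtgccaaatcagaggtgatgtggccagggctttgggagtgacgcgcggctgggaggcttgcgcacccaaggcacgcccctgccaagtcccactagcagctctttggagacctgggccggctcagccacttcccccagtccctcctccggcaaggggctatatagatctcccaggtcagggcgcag
The Acta1 window held 2 E-boxes and 1 match to the CArG box, the element bound by serum response factor, the Ckm window held 1 E-box, the Myh4 window held 2 E-boxes and 1 CArG box, and the Ucp1 window held none of the motifs searched. Each of the 3 muscle windows held 1 E-box of the form CAGCTG, a subset of CANNTG. Both strands were searched, and no window held a match to the MEF2 pattern that was searched. Other forms of the site, which that pattern would miss, were not counted, so no window is shown to lack a MEF2 site. Over 70 skeletal muscle list genes with a RefSeq promoter, 81.4% held CANNTG, 41.4% CAGCTG, 7.14% a CArG box and 7.14% a MEF2 site, against 66.2%, 13.0%, 1.47% and 0.508% of all 32851 promoters. These shares are a description of letters in the window.

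Among the markers of the tissues that could be present, muscle and brown fat markers were higher in the muscle-containing samples, while the basal epithelial marker Krt14 and the adipocyte hormone Adipoq overlapped between the sets. These and all further gene levels are CPM after scaling by the trimmed mean of M-values (TMM). Ckm stood at 0.176, 0.114 and 27.6 CPM in the muscle-poor samples and at 5116, 3375 and 7814 CPM in the muscle-containing samples. Myh4 stood at 0.353, 0.341 and 83.3 CPM against 9672, 7099.5 and 17895 CPM. Sample 5 was the highest of the muscle-poor samples for Acta1, Ckm and Myh4. Ucp1 stood at 9.88, 0 and 3.22 CPM in the muscle-poor samples and at 39.0, 1349.8 and 198 CPM in the muscle-containing samples, so the sets did not overlap but the level spanned a wide range and was led by sample 4 rather than by sample 6. Krt14, a keratin of basal mammary epithelium and of skin, averaged 82.1 ± 26.0 CPM (SD, n = 3) and 57.0 ± 22.3 CPM (edgeR adjusted p = 0.42). Adipoq, the hormone adiponectin made by adipocytes, averaged 944 ± 166 CPM and 1139 ± 256 CPM (edgeR adjusted p = 0.584).

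**Figure D1:**
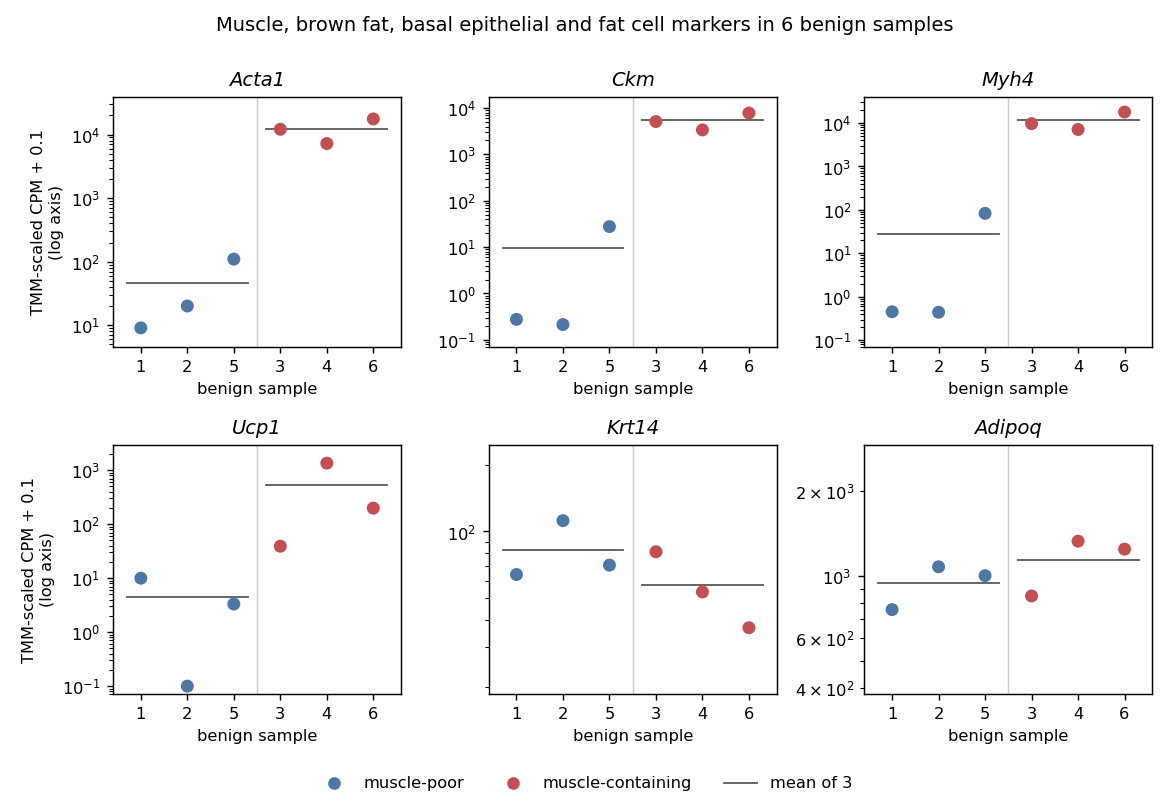
TMM-scaled CPM of 6 markers in each benign sample on a log axis, with a horizontal line at the mean of each set of 3. The muscle genes Acta1, Ckm and Myh4 separate samples 3, 4 and 6 from samples 1, 2 and 5, Ucp1 is highest in sample 4 at 1349.8 CPM, and Krt14 and Adipoq overlap.

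Across 13537 genes tested with edgeR's quasi-likelihood test and Benjamini-Hochberg adjustment, 839 genes (6.2%) were higher and 90 (0.665%) were lower in the muscle-containing samples at an adjusted p under 0.1. With no test, 2030 genes (15.0%) had all 3 muscle-containing samples above all 3 muscle-poor samples, and 1579 (11.7%) had them all below. Of the 839 higher genes, 81 were in the skeletal muscle lists, 96 in lists of other tissues and pathways, and 662 in none of the lists. The 758 outside the muscle lists had a median log2 fold change of 1.34, the 90 lower genes one of -1.15, and all genes tested one of -0.05. Higher calls made up 90.3% of all calls with TMM scaling but 52.3% with scaling by library totals alone (560 higher, 510 lower), which moved the median of all genes to -0.30. With the muscle counts removed before scaling, the counts were 845 and 85.

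The skeletal muscle lists, whose direction follows from the way the samples were divided, together took 0.0458%, 0.0577% and 0.0971% of counts in the muscle-poor samples and 8.01%, 4.65% and 11.4% in the muscle-containing samples. In the 6 tumors the same lists took 0.0427% to 0.0995%, close to the muscle-poor benign tissue. Of 99 genes listed, 96 were in the table and 85 passed the filter on low counts, some only through their level in the muscle-containing samples. Of these 85, 83 had all 3 muscle-containing samples above, with a median log2 fold change of 8.16, or 7.62 with the 6 genes at 0 in every muscle-poor sample set at the bound that 3 counts per library allows. The 34 contractile genes that passed had a median of 8.78, the 18 calcium release and excitation genes of 6.93 and the 15 muscle energy genes of 7.04.

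Fast-fiber transcripts led the contractile genes. Tnnt3, the troponin T of fast fibers, stood at 1.94, 0.341 and 24.2 CPM against 4249.5, 3204 and 7252 CPM. Atp2a1, the calcium pump of fast-fiber sarcoplasmic reticulum, stood at 0.353, 0.114 and 53.9 CPM against 10495, 6478 and 17463 CPM. Per kilobase of exon, Myh4 made up 68.0%, 84.7% and 79.0% of the heavy chain signal in samples 3, 4 and 6, Myh1 15.5%, 10.1% and 15.6%, and Myh2 16.1%, 5.10% and 5.36%. The heavy chains are close copies of one another and may share reads, so these shares are uncertain. Myh7, the heavy chain of slow fibers, stood at 53.2 CPM in sample 3 and at 0.168 and 0.647 CPM in samples 4 and 6. Of the other slow-fiber genes, Tnnt1 reached 20.7, 2.51 and 10.5 CPM, Myl2 21.4, 0 and 0.809 CPM and Tnni1 9.27, 0.168 and 0.647 CPM. Each of these slow-fiber genes was highest in sample 3, which also held the highest share of Myh2, the chain of fast oxidative fibers.

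Genes of calcium handling and of muscle energy supply mostly showed the order of samples that Acta1 did, from sample 6 through 3 to 4. Ryr1, the calcium release channel, stood at 1.94, 1.82 and 7.63 CPM against 1084, 632 and 1954 CPM, and the calcium buffer Pvalb at 0, 0.114 and 8.82 CPM against 1665, 1328 and 2725 CPM. Pygm, the glycogen phosphorylase of muscle, stood at 5.29, 3.41 and 12.6 CPM against 2108, 1349 and 3496 CPM. Mb, myoglobin, which stores oxygen in oxidative fibers, stood at 1.59, 5.0 and 4.89 CPM against 675, 207 and 675 CPM, with samples 3 and 6 alike. The myogenic factor Myod1 reached 10.7, 6.54 and 18.1 CPM in the muscle-containing samples against at most 0.119 CPM in the others, and Myf6, the factor of mature fibers, 18.4, 16.1 and 46.4 CPM against 0. Mstn, myostatin, a secreted brake on muscle growth, stood at 0, 0.341 and 2.38 CPM against 23.1, 140.3 and 429 CPM, with sample 3 well below the other two. Pax7, the factor of muscle satellite cells, was at 0.168 to 0.877 CPM in the muscle-containing samples and fell under the filter on low counts. Fbxo32, a ubiquitin ligase of muscle wasting that is also expressed outside muscle, overlapped between the sets at 77.8, 109.7 and 87.7 CPM against 84.7, 72.9 and 189 CPM.

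Among genes outside the muscle lists, those with the largest rises beyond 10 CPM were mostly known from skeletal muscle as well, and they are described on the same terms as the lists. Mylk4, a kinase of the myosin light chain kinase family, was at 0 counts in all muscle-poor samples and averaged at least 96.3-fold higher in the muscle-containing samples, taking 3 counts per library as the floor. The same bound was 68.8-fold for 2310002L09Rik, 47.1-fold for Ankrd2, a stretch-responsive protein of the sarcomere, and 42.0-fold for Yipf7. Ankrd2 stood at 45.1, 3.52 and 9.22 CPM and was highest in sample 3, the library with slow-fiber transcripts. Eef1a2, the translation elongation factor of muscle and neurons, stood at 0.353, 0 and 2.38 CPM against 579, 373 and 897 CPM, and Rpl3l, a ribosomal protein of striated muscle, at 0, 0.114 and 0.358 CPM against 101, 77.9 and 180.3 CPM. The remaining 6, Prr33, Smtnl1, Abra, Tmem233, Lrrc30 and Myoz3, were at no more than 0.477 CPM in the muscle-poor samples and at 18.4 to 140.1 CPM in the muscle-containing samples. Of 166 higher genes beyond 5 log2 units, 65 were in the muscle lists.

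Most genes of other kinds of muscle were not called. The 9 smooth muscle genes tested had a median log2 fold change of -0.24. Of these, 2 were higher and 1 lower, against 6.2% and 0.665% of all genes. The higher ones, Des at 50.3, 22.1 and 28.0 CPM against 1249, 916 and 2200.0 CPM and Synm at 27.2, 29.2 and 15.5 CPM against 244, 178 and 494 CPM, encode the intermediate filament proteins desmin and synemin. Skeletal muscle makes both, so they are described like the muscle genes. Actg2, the actin of visceral smooth muscle and of myoepithelial cells, stood at 13.8, 17.9 and 13.6 CPM against 7.27, 7.88 and 4.85 CPM (log2 -1.18, SE 0.28, edgeR adjusted p = 0.0731), a call that was lost when any one of samples 1, 2, 4, 5 and 6 was left out. Acta2, the smooth muscle actin, overlapped (edgeR adjusted p = 0.27). None of 3 heart muscle genes and none of 6 pericyte genes passed the test. The heart muscle list took 0.000992% to 0.00142% of counts in the muscle-poor samples. In the muscle-containing samples it took 0.00160% to 0.00230%, without overlap.

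**Figure D2:**
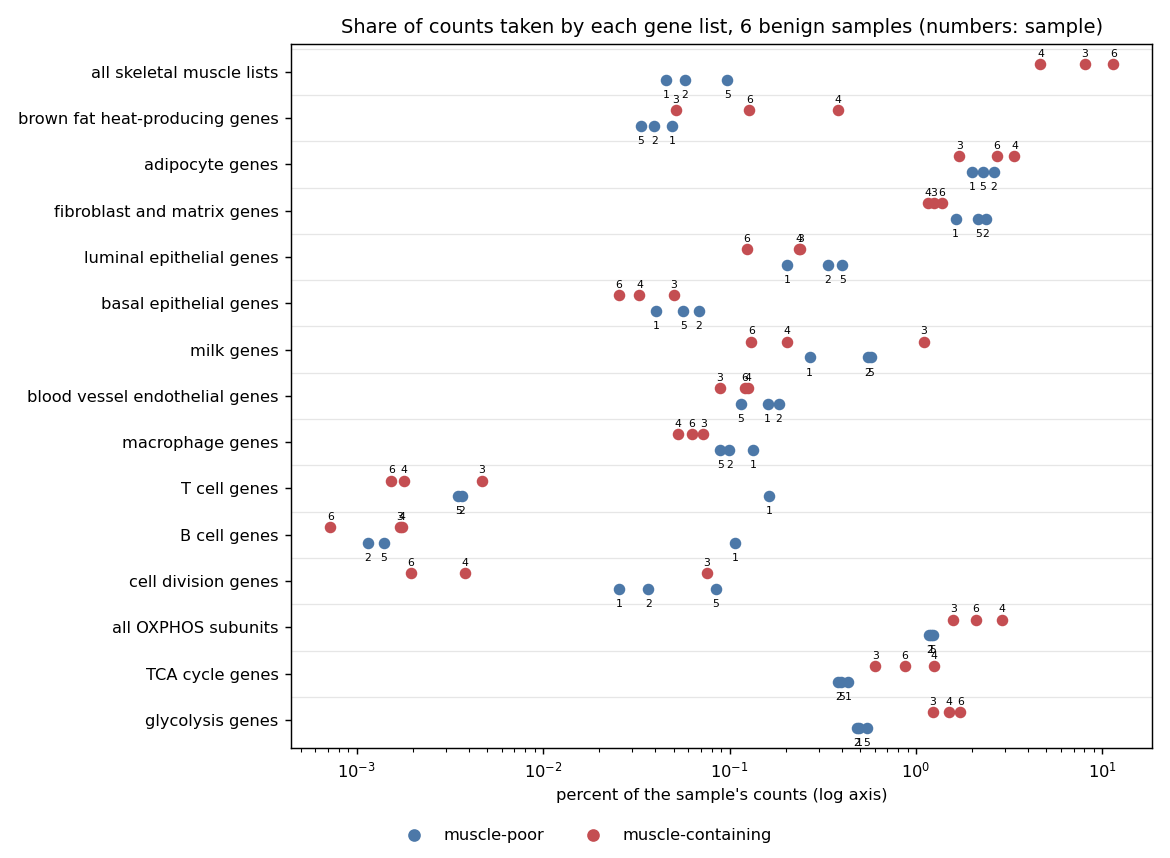
Percent of each benign sample's counts taken by each gene list on a log axis, with each point numbered by its sample and colored by set. Skeletal muscle is the list that separates the sets most widely, from 0.0971% at most to 4.65% at least, the adipocyte and epithelial lists overlap, and the T and B cell lists are led by sample 1.

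A few brown fat genes were higher in the muscle-containing samples, and brown fat transcripts were unevenly spread among these samples. The 15 heat-producing genes of brown fat took 0.0491%, 0.0395% and 0.0334% of counts in the muscle-poor samples and 0.0516%, 0.382% and 0.127% in the muscle-containing samples, against 0.0124% to 0.0292% in tumors. Sample 4 held 9.38 times the mean share of the muscle-poor samples, sample 6 held 3.13 times and sample 3 held 1.27 times, close to the range of the muscle-poor samples. Of 13 members tested, 3 were higher and none lower, against 6.2% higher over all genes, with a median log2 fold change of 2.42. In 5 members all muscle-containing samples lay above, against 15.0% of all genes, and the other 8 overlapped.

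The members called were Ucp1, Cpt1b and Acot11. Ucp1 averaged 4.37 ± 5.04 CPM and 529 ± 715 CPM (log2 7.01, SE 1.74, edgeR adjusted p = 0.083), and the difference missed the threshold when any one of samples 1, 2, 4, 5 and 6 was left out. Cpt1b, the carnitine palmitoyltransferase of muscle and brown fat, which imports fatty acids into mitochondria, stood at 30.4, 8.74 and 12.3 CPM against 108, 456 and 284 CPM (log2 4.06, SE 0.69, edgeR adjusted p = 0.0221). Acot11, a thioesterase induced in brown fat by cold, stood at 15.7, 6.81 and 7.15 CPM against 24.4, 297 and 63.1 CPM (edgeR adjusted p = 0.092), a call that was lost when any one of samples 1, 2, 4, 5 and 6 was left out. The Cpt1b call was lost without sample 2. Skeletal muscle makes Cpt1b, so its direction follows from the division, as for the muscle genes. All 3 genes were highest in sample 4.

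Other brown fat genes had the same order of samples without passing the test. Cidea, a lipid droplet protein of brown and white adipocytes, stood at 81.5, 17.9 and 13.6 CPM against 45.0, 822 and 288 CPM (edgeR adjusted p = 0.176), with sample 1 above sample 3. Elovl3, a fatty acid elongase that cold induces in brown fat, stood at 0, 0.227 and 0.358 CPM against 1.50, 118 and 4.05 CPM (edgeR adjusted p = 0.114). Of 6 identity factors, 5 were tested and Ppargc1a, the coactivator that drives mitochondrial genes in muscle and brown fat, was higher at 7.06, 4.77 and 3.93 CPM against 12.8, 21.3 and 28.0 CPM (log2 1.98, SE 0.38, edgeR adjusted p = 0.0354), and it was highest in sample 6. Prdm16, which sets brown adipocyte fate, overlapped at 11.5, 9.99 and 4.53 CPM against 3.76, 20.8 and 15.4 CPM (edgeR adjusted p = 0.622), and Ebf2, another brown fat factor, did not pass (edgeR adjusted p = 0.24). The Ppargc1a call was lost without sample 2, 4, 5 or 6. Ppargc1a is also made by skeletal muscle, so its direction follows from the division, as for Cpt1b. Without sample 4, 1 of the 13 heat-producing genes was called and their median log2 fold change was 1.43. None was called without sample 2, 1 without sample 1, 5 or 6, and 11 without sample 3, where 1948 of 13708 genes were called higher.

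The 4 genes fixed as shared by muscle and brown fat were all higher, with a median log2 fold change of 3.79. Skeletal muscle makes all 4, so their direction follows from the division, and their adjusted p-values are given as description only. Fabp3, the fatty acid binding protein of heart, muscle and brown fat, stood at 3.53, 2.04 and 2.86 CPM against 67.4, 264 and 111 CPM (log2 5.73, SE 0.61, edgeR adjusted p = 0.00335). Cox7a1, a cytochrome oxidase subunit of both tissues, stood at 7.94, 5.0 and 4.41 CPM against 49.9, 167 and 80.9 CPM (log2 4.11, SE 0.51, edgeR adjusted p = 0.0063), and Cox8b, another such subunit, at 42.9, 18.8 and 12.8 CPM against 83.4, 492 and 246 CPM (edgeR adjusted p = 0.0517). Slc2a4, the insulin-responsive glucose transporter of muscle and fat, stood at 196, 172 and 188 CPM against 342, 474 and 541 CPM (edgeR adjusted p = 0.0186). Fabp3, Cox7a1 and Cox8b were highest in sample 4, the sample with the least Acta1 of the muscle-containing samples, while Slc2a4 was highest in sample 6. Without sample 2, 2 of the 4 were called, and without sample 4, 5 or 6, 3 were. The Cox8b call was lost without sample 2, 4, 5 or 6 and the Slc2a4 call without sample 2.

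Nuclear genes of the mitochondrial respiratory chain were higher as a group. Of 84 subunits of Complexes I to V tested, 59 were higher and none lower, with a median log2 fold change of 1.10, against 6.2% higher over all genes, and 75 had all muscle-containing samples above, against 15.0% of all genes. By complex, 27 of 36 subunits of Complex I, 4 of 4 of Complex II, 8 of 9 of Complex III, 8 of 16 of Complex IV and 12 of 19 of Complex V were called. Together they took 1.20%, 1.18% and 1.23% of counts in the muscle-poor samples and 1.58%, 2.87% and 2.10% in the muscle-containing samples, with tumors at 0.774% to 1.20%. The muscle-poor samples differed little from each other in this share, while the muscle-containing samples spread widely and were led by sample 4.

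Single subunits showed the same pattern. Ndufs1, the largest core subunit of Complex I, stood at 135, 123 and 126 CPM against 233, 429 and 379 CPM (log2 1.44, SE 0.24, edgeR adjusted p = 0.022). Sdhb, the iron-sulfur subunit of Complex II, stood at 148, 121 and 130.1 CPM against 249, 529 and 384 CPM (log2 1.54, SE 0.28, edgeR adjusted p = 0.0302). Uqcrc1, a core protein of Complex III, stood at 229, 213 and 227 CPM against 399.7, 959 and 589 CPM (edgeR adjusted p = 0.048). In each of these the lowest muscle-containing sample was sample 3 and lay above every muscle-poor sample. Cox5a of Complex IV stood at 119.6, 113 and 125 CPM against 215, 462 and 342 CPM (edgeR adjusted p = 0.0311), and Atp5b, the catalytic subunit of ATP synthase, at 1247, 1216 and 1348 CPM against 1961, 3679 and 2773 CPM (edgeR adjusted p = 0.0834), a call that was lost without sample 1, 2, 4, 5 or 6. Cox4i1, the most widely expressed form of its subunit, stood at 378, 419 and 377 CPM against 439, 1044 and 651 CPM and did not pass (edgeR adjusted p = 0.204), and Atpif1, an inhibitor of ATP synthase, had a log2 fold change of -0.57 (edgeR adjusted p = 0.343).

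The number of subunits called depended on which libraries entered. Leaving out 1 sample at a time gave 6 subunits called without sample 1, 2 without sample 2, 79 without sample 3, 24 without sample 4, 9 without sample 5 and 6 without sample 6, and leaving out samples 1 and 4 together gave 4. The median log2 fold change stayed positive in each, at 0.88 without sample 4 and 0.86 without samples 1 and 4. Without sample 1, the Uqcrc1 and Cox5a calls were among those lost. Scaling by library totals left 37 called, and removing the muscle list counts before scaling 61. Skeletal muscle transcripts, at 4.65% to 11.4% of counts, and brown fat transcripts, at 0.0516% to 0.382%, were also higher in the muscle-containing samples. Among these samples the brown fat share had the order of the respiratory chain share, from sample 4 through 6 to 3, and the muscle share did not. The part of muscle and brown fat transcripts in this result was not tested, nor was their part in the TCA cycle, fatty acid and glycolytic results that follow.

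The TCA cycle followed the respiratory chain. Of 17 genes tested, 14 were higher and none lower, against 6.2% higher over all genes, all 17 had the muscle-containing samples above, against 15.0% of all genes, and the median log2 fold change was 1.32. Their share of counts was 0.433%, 0.383% and 0.398% in the muscle-poor samples and 0.604%, 1.25% and 0.874% in the muscle-containing samples. Cs, citrate synthase, which opens the cycle, stood at 449, 401 and 429.5 CPM against 736, 1384 and 1029 CPM (log2 1.30, SE 0.26, edgeR adjusted p = 0.0422), and Idh3a, the catalytic subunit of its NAD-dependent isocitrate dehydrogenase, at 177, 175 and 189 CPM against 371, 761 and 562 CPM (edgeR adjusted p = 0.0205). Without sample 4, 7 genes were called, and without samples 1 and 4 none was, with a median log2 fold change of 1.08. Leaving out sample 1, 2, 5 or 6 left 2, 0, 2 and 2 called, and leaving out sample 3 gave 17.

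Of 18 genes of fatty acid oxidation, 2 were called higher and 1 lower, against 6.2% and 0.665% of all genes. Their median log2 fold change was 1.34, and 15 had all muscle-containing samples above, against 15.0% of all genes. The higher ones, Hadha and Hadhb, encode the trifunctional protein of long-chain oxidation. Hadhb stood at 337, 247 and 252 CPM against 410.5, 1953 and 1060.4 CPM (log2 2.03, SE 0.53, edgeR adjusted p = 0.0963). The lower one, Cpt1a, is the carnitine palmitoyltransferase of liver and many other tissues, the counterpart of Cpt1b, and stood at 66.5, 76.3 and 79.3 CPM against 46.4, 45.6 and 53.4 CPM (log2 -0.61, SE 0.14, edgeR adjusted p = 0.0671). The Hadha, Hadhb and Cpt1a calls were lost when any one of samples 1, 2, 4, 5 and 6 was left out, and DESeq2 called 16 genes higher and 1 lower. With scaling by library totals none was called higher and 1 was called lower. Without sample 3, 17 were called higher and 1 lower, against 1948 and 1371 of 13708 genes tested.

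Glycolytic genes were also higher, and in their share of counts sample 6 stood above sample 4. Of 14 genes tested, 8 were higher and none lower, against 6.2% higher over all genes, with a median log2 fold change of 1.30. Aldoa, the aldolase of muscle, stood at 1294, 1201 and 1215 CPM against 5625, 6758 and 10114 CPM (log2 2.60, SE 0.32, edgeR adjusted p = 0.00574), and Gapdh at 273, 243 and 350.4 CPM against 939, 1085 and 1262 CPM (log2 1.92, SE 0.23, edgeR adjusted p = 0.00463). Both kept their call in every alternative run. Gapdh has many near-identical pseudogenes, so its level is uncertain. Pkm, pyruvate kinase, averaged 554 and 1851 CPM (edgeR adjusted p = 0.00921), Hk2, the hexokinase of muscle and fat, stood at 115, 87.8 and 106 CPM against 253, 492 and 465 CPM (edgeR adjusted p = 0.0116), and Hk1, the hexokinase of most other tissues, had a log2 fold change of -0.28 (edgeR adjusted p = 0.531). Aldoa and Hk2 are made by skeletal muscle, so their direction follows from the division. Their adjusted p-values and kept calls are given as description only. The share of counts of the list was 0.493%, 0.483% and 0.546% against 1.23%, 1.50% and 1.73%, and tumors stood at 1.08% to 1.60%, close to the muscle-containing samples. Leaving out sample 1, 3 or 4 gave 6, 11 and 7 called, and leaving out samples 1 and 4 together left 2.

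The order of the 3 muscle-containing samples differed between these gene groups. Muscle list genes ran from sample 6 through sample 3 to sample 4 in 73 of 85 cases (85.9%). The order from sample 4 through sample 6 to sample 3 was found in 15 of 18 brown fat genes (83.3%), 74 of 84 respiratory chain subunits (88.1%), 17 of 17 TCA cycle genes and 17 of 18 fatty acid oxidation genes (94.4%). Over all genes tested these orders had shares of 10.7% and 22.6%, and over the 758 higher genes outside the muscle lists 44.9% and 26.8%. Glycolytic genes were split, with 6 of 14 running from sample 6 through 4 to 3 and 5 of 14 from sample 4 through 6 to 3. Genes of a list share their libraries, so these are counts within 3 samples and not independent observations.

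**Figure D3:**
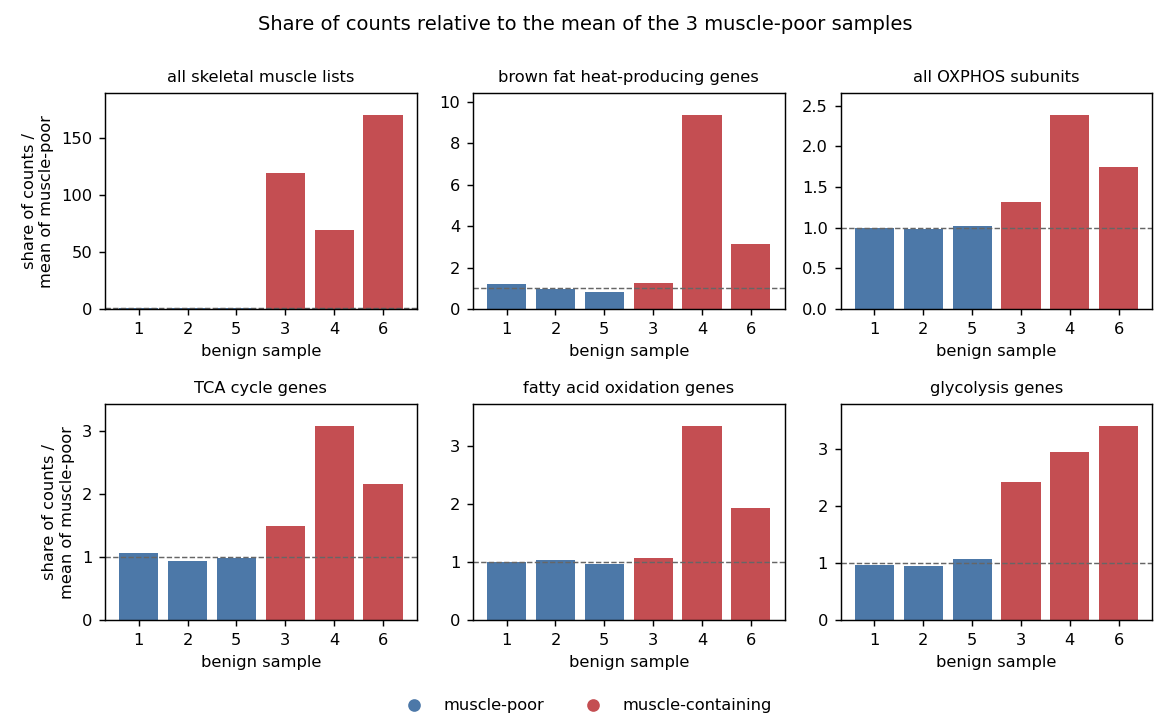
Share of counts of 6 gene lists in each benign sample, divided by the mean share of the 3 muscle-poor samples, which the dashed line marks at 1. Skeletal muscle is highest in sample 6 at 170.9 and lowest of the muscle-containing samples in sample 4 at 69.5, whereas brown fat heat production, respiratory chain, TCA cycle and fatty acid oxidation are highest in sample 4 at 9.38, 2.39, 3.09 and 3.34.

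Transcripts of white adipocytes, the bulk of the mammary fat pad, differed less than the spread between samples. None of 19 adipocyte genes passed the test, with a median log2 fold change of 0.51. A positive log2 fold change was found in 18 of them, against 6124 of 13537 genes tested. The list took 1.99%, 2.61% and 2.28% of counts against 1.71%, 3.37% and 2.71%, far above the tumors at 0.0361% to 0.0586%. Fabp4, the fatty acid binding protein of adipocytes, stood at 4592, 5663 and 4559 CPM against 3526, 10176 and 7337 CPM (edgeR adjusted p = 0.529), so samples on both sides of the muscle-poor range were muscle-containing. Plin1, which coats lipid droplets, stood at 914, 1021 and 917 CPM against 806, 1746 and 1482 CPM (edgeR adjusted p = 0.4). Lep, the satiety hormone leptin, stood at 374, 835 and 1281 CPM against 770.2, 723 and 832 CPM (edgeR adjusted p = 0.912). Sample 3 was the lowest of the muscle-containing samples in Fabp4 and Plin1. Without sample 3, 11 of the adipocyte genes were called higher, with a median of 0.77, against 1948 of 13708 genes tested. None of 4 white fat genes passed the test. Of 10 fatty acid synthesis genes, Mlxipl, the glucose-sensing activator of lipid synthesis, was higher at 145, 118 and 165 CPM against 197, 491 and 370.4 CPM (log2 1.31, SE 0.34, edgeR adjusted p = 0.0921), a call that was lost with library totals and when any one of samples 1, 2, 4, 5 and 6 was left out. Scd1 and Fasn, the desaturase and synthase of the pathway, did not pass (edgeR adjusted p = 0.814 and 0.433).

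No gene of the luminal or basal epithelial lists passed the test. The 24 luminal genes had a median log2 fold change of -0.46, with 17 of them negative, and the 8 basal genes a median of -0.23, with all 8 negative. Over all genes tested, 7413 of 13537 were negative. The luminal share of counts was 0.204%, 0.338% and 0.403% against 0.239%, 0.235% and 0.124%, and the tumors, which arise from this epithelium, stood at 0.470% to 0.647%. Krt8, a keratin of luminal cells, stood at 215, 382 and 508 CPM against 274, 316 and 182 CPM (edgeR adjusted p = 0.442). Gata3, the factor that keeps luminal identity, stood at 130.4, 177 and 195 CPM against 107, 120.4 and 42.1 CPM (edgeR adjusted p = 0.254). Ehf, an epithelial ETS factor, stood at 149, 263 and 240.3 CPM against 174, 53.0 and 23.9 CPM (edgeR adjusted p = 0.304). Samples 4 and 6 were lower than every muscle-poor sample in Ehf, and sample 3 was not. The counts depended on sample 3, without which 7 luminal genes were lower and 4 higher. Over all 13708 genes tested without sample 3, 1371 were lower and 1948 higher.

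Milk protein genes varied more among samples than between the sets. Csn2, beta-casein, stood at 481, 1625 and 1687 CPM against 4209.6, 154 and 61.2 CPM (log2 0.22, SE 1.39, edgeR adjusted p = 0.943), so sample 3 was the highest of the 6 and samples 4 and 6 the lowest. Csn1s1 showed the same order with 669, 1598 and 1732 CPM against 3689.9, 291 and 149 CPM (edgeR adjusted p = 0.986). Without sample 3 both were lower, Csn2 by a log2 fold change of -3.56 (edgeR adjusted p = 0.0273) and Csn1s1 by -2.60 (edgeR adjusted p = 0.0275). None of 7 genes of the HER2 receptor and its feedback targets passed the test, with Erbb2 at 42.7, 62.4 and 70.3 CPM against 52.4, 52.1 and 41.8 CPM (edgeR adjusted p = 0.524).

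Genes of cell division were high in sample 3 and low in samples 4 and 6. Mki67, which marks dividing cells, stood at 67.8, 91.7 and 188 CPM against 191, 9.22 and 5.66 CPM (edgeR adjusted p = 0.758). The 10 genes of the list had a median log2 fold change of -0.71 and none was called. Without sample 3 all 10 were lower with a median of -3.80, against 1371 lower of 13708 genes tested. The share of counts of the list was 0.0254%, 0.0366% and 0.0846% against 0.0757%, 0.00380% and 0.00196%.

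Within the fibroblast and matrix list, the genes that were lower encode fibrillar collagens and periostin. Of its 22 genes, 4 were lower and none higher, against 0.665% lower over all genes, with a median log2 fold change of -0.36. The same 4 were also the members with all muscle-containing samples below, against 11.7% of all genes. Col1a1 stood at 1822, 2971 and 2729 CPM against 1078, 819 and 767 CPM (log2 -1.50, SE 0.28, edgeR adjusted p = 0.0326). Col1a2, which encodes the other chain of type I collagen, stood at 1548, 2288 and 2324 CPM against 987, 826 and 924 CPM (edgeR adjusted p = 0.0473), and Col3a1, the chain of type III collagen, at 3733, 5255 and 4648 CPM against 2236, 1629 and 1718 CPM (edgeR adjusted p = 0.0484). Postn, periostin, a matrix protein of remodeling stroma, stood at 799, 1032 and 1156 CPM against 616, 351 and 394 CPM (edgeR adjusted p = 0.0801). The collagen calls were lost when any one of samples 2, 4, 5 and 6 was left out, and the Postn call also without sample 1. With the muscle list counts removed before scaling, 4 genes of the list were again lower.

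The other 18 members did not pass, and 15 of the 22 had a negative log2 fold change, against 7413 of 13537 genes tested. Among those that did not pass, named after their values were seen, were Pdgfra, Dcn and Gsn. Pdgfra, the receptor that marks fibroblasts and adipocyte precursors, stood at 97.1, 124 and 94.7 CPM against 97.2, 84.8 and 107 CPM (log2 -0.13, edgeR adjusted p = 0.694). Dcn, the matrix proteoglycan decorin, had a log2 fold change of 0.11 (edgeR adjusted p = 0.837), and Gsn, gelsolin, which had the highest log2 fold change of the list at 0.52, stood at 3663, 5030.5 and 3967 CPM against 3953, 6229.9 and 8009.6 CPM (edgeR adjusted p = 0.429). Whether the collagens and the fibroblast markers differ in their change was not tested. The list took 1.63%, 2.36% and 2.16% of counts against 1.24%, 1.16% and 1.37%, without overlap, and 0.129% to 0.196% in tumors.

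Vessel and immune transcripts gave no call in the main test. None of 12 blood vessel endothelial genes passed the test, and Pecam1, an adhesion protein of endothelium, stood at 334, 294 and 178 CPM against 159, 247 and 258 CPM (edgeR adjusted p = 0.624). None of 6 lymphatic endothelial genes passed, with Prox1, the factor of lymphatic identity, at 4.06, 2.27 and 1.91 CPM against 0.752, 0.838 and 1.46 CPM (edgeR adjusted p = 0.186). None of 12 macrophage genes passed, though 11 had a negative log2 fold change, against 7413 of 13537 genes tested. In 5 macrophage genes all muscle-containing samples lay below, against 11.7% of all genes. Csf1r, the receptor on which macrophages depend, stood at 144, 125 and 104 CPM against 79.6, 64.7 and 99.0 CPM (edgeR adjusted p = 0.172). With scaling by library totals 4 macrophage genes were lower.

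Lymphocyte transcripts came from sample 1. Cd3e, a chain of the T cell receptor complex, stood at 105, 1.36 and 0.953 CPM against 1.75, 1.17 and 0.647 CPM (edgeR adjusted p = 0.22), and Ccl19, a chemokine of lymph node stroma, at 145, 1.36 and 0.358 CPM against 0.376, 1.01 and 1.62 CPM. The median log2 fold change of 7 T cell genes was -4.18 with sample 1 and -0.17 without it, and none was called in either. With all 12 samples in the fit, 5 of the 7 T cell genes and 2 of 5 lymph node stroma genes were lower. The MHC class II genes, which present antigen, took 0.338%, 0.101% and 0.0730% of counts against 0.0562%, 0.0521% and 0.0502%. Their median log2 fold change was -1.45, or -0.43 without sample 1, and none of 7 was called, with Cd74, the invariant chain, at 1729, 505 and 365 CPM against 327, 304 and 304 CPM (edgeR adjusted p = 0.219). DESeq2 called 3 of the 7 lower.

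**Figure D4:**
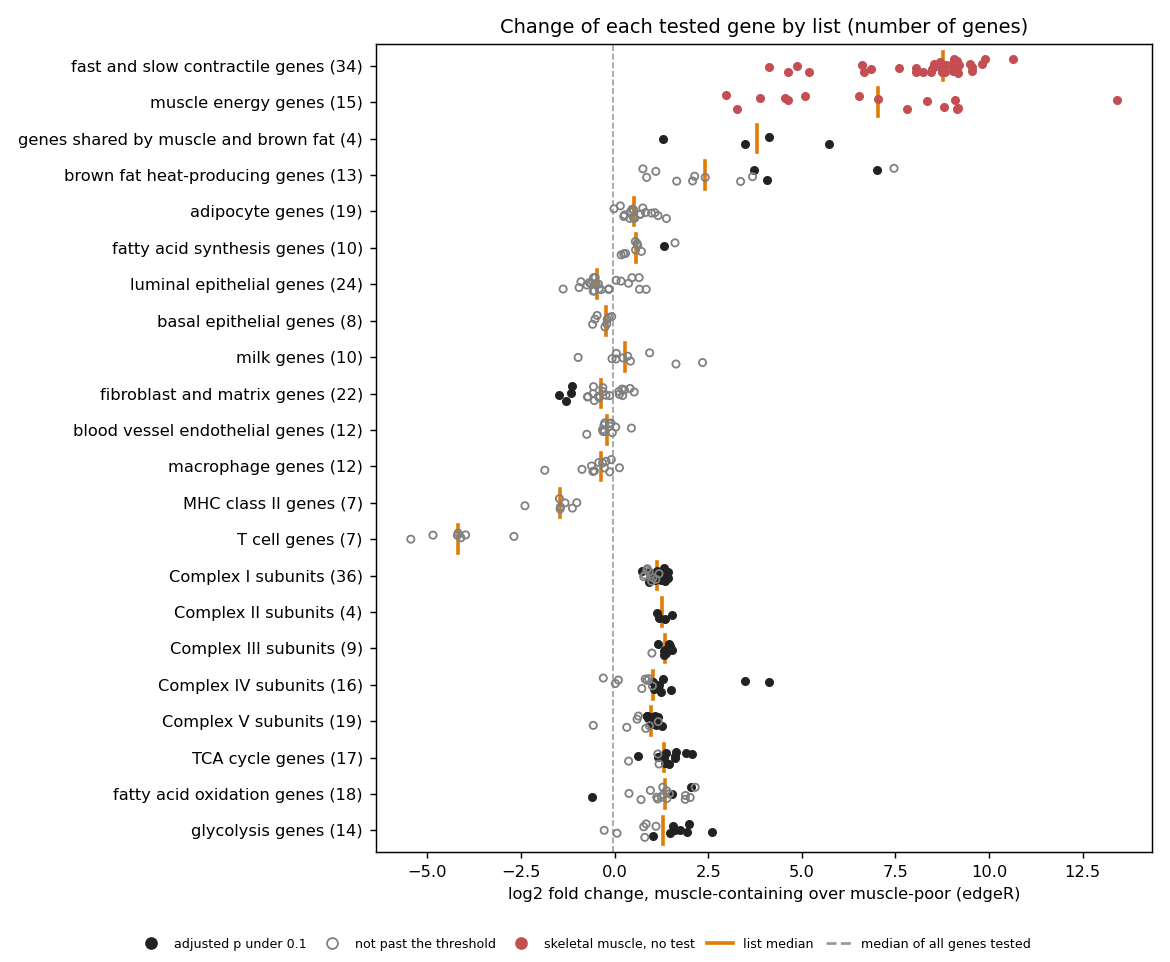
Log2 fold change of every tested gene of 22 lists, muscle-containing over muscle-poor, with filled points for adjusted p under 0.1, open points for genes that did not pass, red points for skeletal muscle genes, which are given no test, and orange bars at list medians. The respiratory chain, TCA cycle and glycolysis lists lie near 1 log2 unit and the 4 called fibroblast and matrix genes lie between -1.50 and -1.13.

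Of the 90 lower genes, 6 were in a list. The 12 with the largest falls among the 72 eligible were led by Lrrc15, a surface protein of activated fibroblasts, at 20.5, 21.3 and 55.7 CPM against 11.4, 3.35 and 5.50 CPM (log2 -2.25, SE 0.58, edgeR adjusted p = 0.0921). Il17b, a cytokine, stood at 32.8, 42.6 and 19.1 CPM against 7.64, 9.39 and 4.21 CPM (log2 -2.15, SE 0.40, edgeR adjusted p = 0.0331). Mfap4, a microfibril protein of elastic matrix, stood at 27.9, 43.9 and 16.4 CPM against 9.40, 4.53 and 6.80 CPM (edgeR adjusted p = 0.0482). Bmf, which promotes cell death when epithelial cells lose attachment, stood at 76.8, 90.6 and 57.4 CPM against 17.9, 30.0 and 19.1 CPM (log2 -1.75, SE 0.27, edgeR adjusted p = 0.015) and kept its call in every alternative run. Col7a1, the collagen of anchoring fibrils made by epithelium, stood at 100.4, 153 and 118 CPM against 63.0, 44.4 and 30.7 CPM (edgeR adjusted p = 0.0445). The others were Sidt1, Dusp5, Slc5a8, Gabrp, Serpina1b, Mex3b and Col1a1, with log2 fold changes between -2.23 and -1.46. The Lrrc15 call was lost when any one of samples 1, 2, 4, 5 and 6 was left out, the Il17b call without sample 1, 2 or 6, the Mfap4 call without sample 1, 2, 4 or 6 and the Col7a1 call without sample 2, 4, 5 or 6.

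Transcription factors that mark position along the body and in the limbs differed between samples in more than one pattern. Tbx15, a T-box factor at chr3:99240348-99354260 that is expressed in fast muscle fibers, in brown fat precursors and in limb and trunk mesenchyme, stood at 12.2, 16.9 and 19.8 CPM against 80.1, 95.2 and 202 CPM (log2 2.94, SE 0.40, edgeR adjusted p = 0.0096) and kept its call in every alternative run. The muscle-poor samples lay below the muscle-containing samples without overlap, and sample 6 was the highest. Because fast muscle fibers express Tbx15, its direction follows from the division, and its adjusted p-value and kept call are description only. Of 27 Hox genes tested, which are expressed in blocks along the head-to-tail axis, 2 were higher and none lower, a share near the 6.2% higher over all genes. Their median log2 fold change was 0.15, or -0.13 with library totals and -0.09 without sample 4. Hoxd8 stood at 19.1, 26.1 and 19.8 CPM against 43.1, 39.1 and 66.0 CPM (edgeR adjusted p = 0.0512), and Hoxc5 at 9.18, 9.31 and 11.0 CPM against 14.8, 22.0 and 20.2 CPM (edgeR adjusted p = 0.0867). No Hox gene was called without sample 1, 2, 5 or 6, and the Hoxc5 call was lost in 11 of 16 alternatives, among them library totals and leaving out sample 4.

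The posterior Hox genes, singled out here after their values were seen, did not follow the muscle division. Hoxc10, at chr15:102966796-102971898, stood at 17.8, 26.2 and 0.238 CPM against 0.251, 13.4 and 9.87 CPM (edgeR adjusted p = 0.749), so it was near 0 in samples 3 and 5 and present in the other 4. Hoxa10 stood at 6.71, 10.2 and 0 CPM against 2.13, 6.20 and 7.44 CPM, and Hoxa9 at 11.1, 13.6 and 0.477 CPM against 3.76, 9.72 and 13.4 CPM. Sample 5 and sample 3 were the lowest in each of these genes, one of them muscle-poor and the other muscle-containing.

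**Figure D5:**
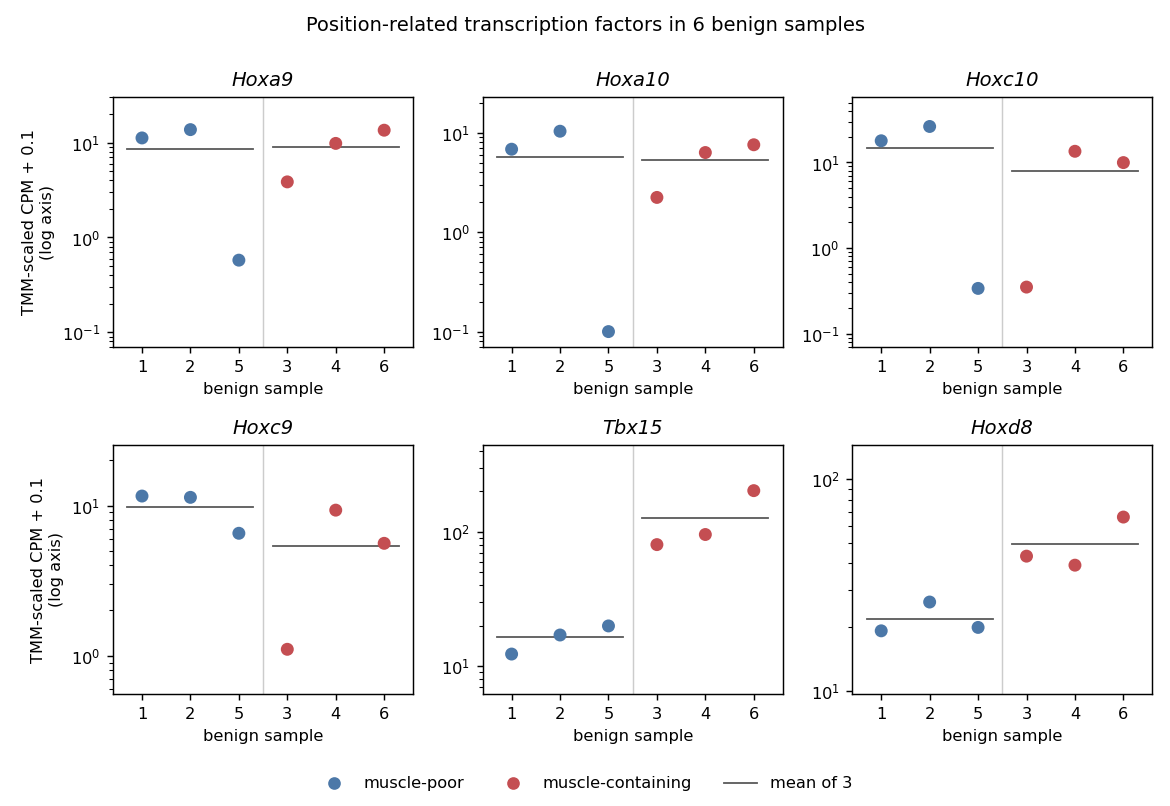
TMM-scaled CPM of 6 transcription factors in each benign sample on a log axis, with a horizontal line at the mean of each set of 3. Hoxa9, Hoxa10 and Hoxc10 are lowest in samples 3 and 5, which are on different sides of the muscle division, while Tbx15 and Hoxd8 are higher in samples 3, 4 and 6.

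Over whole libraries the samples also divided along the first principal component, which is a description and not a test. The first principal component of the 6 benign samples over all genes tested held 64.1% of the variance and placed samples 1, 2 and 5 at -70.1, -60.3 and -49.0 and samples 3, 4 and 6 at 33.9, 60.7 and 84.8. Over the 13452 genes outside the muscle lists it held 57.6%, with the muscle-poor samples at -56.3, -44.7 and -45.3 and the muscle-containing samples at 13.5, 55.9 and 76.9. The genes with the largest weights on that component, Eef1a2, Apobec2, Mylk2, Klhl31, Rpl3l and Myoz3 among them, were again genes known from skeletal muscle. The muscle-containing samples ran on it from 6 through 4 to 3, whereas most muscle list genes ran from 6 through 3 to 4. What other transcripts shaped the component was not tested. With the muscle lists removed, sample 3 lay closest to the muscle-poor samples, and the second component, at 22.6%, was led by sample 1 at 48.8 against sample 3 at -52.3.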

How the data were processed

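Poly A RNA of 12 mammary samples was sequenced from directional libraries. Per the labels, reads were trimmed with Trim Galore, quantified with Salmon against mm10 and analysed with DESeq2, and versions and annotation are not given in the sources used here. The deposited table holds the authors' estimated counts as whole numbers for 16411 genes, with a sum of at least 5 over 12 samples, and 0 of its columns lacked a sample. Mitochondrially encoded genes were not analysed here. CPM was the count per 1000000 of the library total. The 6 benign samples were divided at 1000 CPM of Acta1.

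Genes were filtered with edgeR's filterByExpr (minimum count 10, minimum total 15), scaled by TMM and tested with edgeR 4.0.16 (limma 3.58.1, R 4.3.3) by quasi-likelihood (two-sided), with p-values adjusted after Benjamini and Hochberg over all genes tested and a threshold of 0.1 as in the study's methods. The scripts were tested on simulated counts. DESeq2 1.42.0 and 15 other alternatives were run. The benign samples are biological replicates per the study's methods. The members and all 43 gene lists (546 of 568 genes in the table) were chosen with earlier results of these data known. Named were the 6 markers, up to 4 of the most abundant and 4 of the called members of each list, and the 12 called genes outside the muscle lists with the largest rises and falls without overlap and a mean of at least 10 CPM in the higher set. Other named list members were chosen after their values were seen. Fold changes are on edgeR's log2 scale. Total counts of 5240853 to 8170687 per benign library limit the precision for genes near 0. Promoters were matched by symbol in RefSeq for 70 of 83 muscle list genes that did not overlap.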

Additional observations from a re-analysis of the deposited data

Results flagged for a closer look

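Of 75 values checked over the 6 benign samples, 10 had 1 sample far from the others, its gap to the nearest sample taking more than 0.625 of the whole range. Chance alone gives such a gap in about 1 of 20 groups. Sample 1 was the highest in the share of counts of T cell genes (gap 0.981 of the range), B cell genes (0.99), lymph node stroma genes (0.923), MHC class II genes (0.824) and neutrophil genes (0.728). Its B cell genes took 0.107% of counts against 0.000723% to 0.00175% in the other 5, and Glycam1, a mucin of lymph node vessels that mammary epithelium also secretes, stood at 515 CPM against 40.7 CPM at most. Sample 4 was the highest in the share of brown fat heat-producing genes (0.73) and in Ucp1 (0.853). Sample 3 was the highest in Ankrd2 (0.796), and sample 5, the muscle-poor sample with the most Acta1, was the highest in Lrrc15 (0.656) and in Slc5a8 (0.635), a monocarboxylate transporter at 16.9 CPM in it and at 2.26 to 7.61 CPM in the other 5.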

How the results depend on the processing

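Against 839 genes higher and 90 lower, DESeq2 gave 1324 and 442, all 12 samples in the fit 1116 and 347, upper-quartile scaling 693 and 164, library totals 560 and 510, adjusted p under 0.05 gave 534 and 21, at least 10 counts in every sample 573 and 76, and leaving out samples 1 and 4 together, an alternative added after seeing the data, 403 and 7. Leaving out 1 sample at a time gave 336 to 1948 higher and 5 to 1371 lower, with the most of both without sample 3 (58.7% of calls higher) and the fewest higher without sample 2. The cause was not tested. Of the 839, 838 were among the calls without sample 3 and 336 among those without sample 2. The log2 fold changes of Csn2 and Csn1s1 turned from 0.22 and 0.05 to -3.56 and -2.60 without sample 3 and were at most 0.79 and 0.58 in the alternatives that left out 1 sample. Of 82 named genes that were called, 20 kept the call in every alternative run. Removing muscle counts before scaling, relative log expression size factors and a filter of at least 1 count kept both counts within 1.5 times. No paired analysis was possible because the muscle-containing and muscle-poor samples share no replicate numbers. At these depths, genes near 0 counts in a set give no precise fold change.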

Other observations

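All 3 red blood cell genes tested had all 3 muscle-containing samples above all 3 muscle-poor samples, against 15.0% of all genes. None passed the test. They are the hemoglobin chains Hba-a1 and Hbb-bt, and Alas2, the enzyme that starts heme synthesis in red cell precursors. Hba-a1 stood at 859, 1640.4 and 1861 CPM in samples 1, 2 and 5 and at 2333, 3838 and 2531 CPM in samples 3, 4 and 6 (log2 1.0, SE 0.37, edgeR adjusted p = 0.205), and its close copy Hba-a2 may share its reads. Alas2 stood at 14.6, 27.5 and 32.7 CPM against 42.0, 59.5 and 45.0 CPM (edgeR adjusted p = 0.16). DESeq2 called all 3 genes of the list higher, and edgeR did so without sample 3. None of 10 Schwann cell genes, 12 immediate early genes, 4 mast cell genes or 5 skin and hair genes passed the test, with median log2 fold changes of 0.16, 0.37, 0.13 and -0.64.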
